A study of Mus musculus with 16 samples.

Results

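Intergenic transcripts are RNAs that lie outside every annotated gene on either strand. TALON, the program that sorted the long reads of this experiment into isoforms, puts a read in its intergenic class when the read overlaps no gene of the annotation it was given. The transcripts described here were selected on their read counts: an intergenic isoform was taken when 2 or more of the 16 samples held 5 or more of its reads, all sets of counts of a sample being summed. There were 277 of them among 52348 intergenic rows listed, or 0.529%, and among 815498 isoforms of all classes. Since read counts chose them, their levels are a description. Exon number, length, genotype and region were not part of the rule.

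RNA came from the cortex and the striatum of 3-month-old male mice, with 4 R6/2 and 4 non-transgenic (NT) samples in each region. R6/2 mice, on a mixed B6CBA background, carry a transgene with exon 1 of the human huntingtin gene (HTT) and an expanded CAG repeat, driven by the human HTT promoter. NT mice are the controls without the transgene, and no group received a treatment. In Iso-seq, full-length cDNA made from polyadenylated RNA is read from end to end on a PacBio instrument, so that each read shows the exons of an RNA in order. The cDNA was amplified by PCR, and copies of the same molecule were not marked in the tables used here. Total reads lay between 252885 and 808814 per cortical sample and between 317050 and 1496196 per striatal sample. Levels are given as counts or as CPM (counts scaled to the sample's total over all classes) and are not scaled by length.

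Polyadenylated RNA outside annotated genes is known to come from several kinds of sequence. Long noncoding RNAs that are missing from the annotation, transcribed repeats, RNA from enhancers and readthrough beyond the end of a gene all give such reads. Priming of the cDNA on stretches of A inside an RNA is a known source of single-exon reads in cDNA libraries. The tables used here give each transcript a TALON identifier, an exon number and a length. They pair it with no position or sequence, so no transcript below is tied to a locus.

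The 4 striatal samples NT 1, NT 2, R6/2 2 and R6/2 3 came with 2 sets of counts each, which the labels call data for 2 replicates, while the other 12 samples had 1 set. These 4 samples stood apart from the rest in the length of what was read. The mean listed length over all reads was 2125 to 2197 nt in the 4 samples with 2 sets, 1589 to 1840 nt in the 4 striatal samples with 1 set and 1821 to 2068 nt in the cortex. Each genotype holds 2 samples of both kinds in the striatum, so the number of sets was a term in the striatal fits, and results are also given within each kind. The regional labels held: all 9 striatal projection neuron markers were higher in every striatal than in every cortical sample, and 5 of 6 cortical excitatory neuron markers were higher in every cortical sample. Choroid plexus markers summed to 7744 CPM in striatal NT 3 and to 242 to 664 CPM in the other striatal samples. In the cortex they summed to 1203 CPM in NT 4, 1296 CPM in R6/2 2 and 1648 CPM in R6/2 3. The other cortical samples lay between 131 and 201 CPM.

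Most intergenic rows rested on very few reads. Of 39562 intergenic rows with a read in any sample, 29572 (74.7%) had exactly 1 read. The 277 transcripts held 23460 of 95443 intergenic reads (24.6%). At the threshold, 79 transcripts had 5 reads in their second-highest sample, with a median of 32 reads in all, and 120 intergenic rows just outside had 4, with a median of 25. By comparison 2.71% of antisense rows and 28.5% of known isoforms passed the same rule.

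The transcripts were mostly single-exon RNAs. One exon was listed for 268 (96.8%), 2 exons for 7, 3 for 1 and 4 for 1. The 7 transcripts with 2 exons were 431 to 2199 nt long and had 33 to 71 reads. Each of the 277 was its own TALON gene. Only 42 of these genes had any other isoform, 98 isoforms in all, of which 58 were genomic, 28 had unannotated splice sites, 7 were incomplete splice matches and 5 were unannotated combinations of known sites. The listed transcript held 94.5% of the reads of these genes.

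Length ranged from 1 to 5870 nt with a median of 1049 nt and quartiles of 237 and 2328 nt. There were 94 transcripts under 500 nt, 98 of 500 to 1999 nt and 85 of 2000 nt or more. The short ones clustered: 40 transcripts, all with 1 exon, were 160 to 189 nt long, against 9 of 130 to 159 nt and 9 of 190 to 219 nt, and 17 of them fell between 177 and 179 nt. This window, chosen after the lengths were seen, held 14.4% of the intergenic transcripts. It held 0.796% of antisense and 0.0373% of known isoforms that passed the same rule, and 5.88% of all intergenic rows with a read. A length of 1 nt, listed for 2 transcripts, is shorter than any read that could be mapped and is given only as listed.

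**Figure D1:**
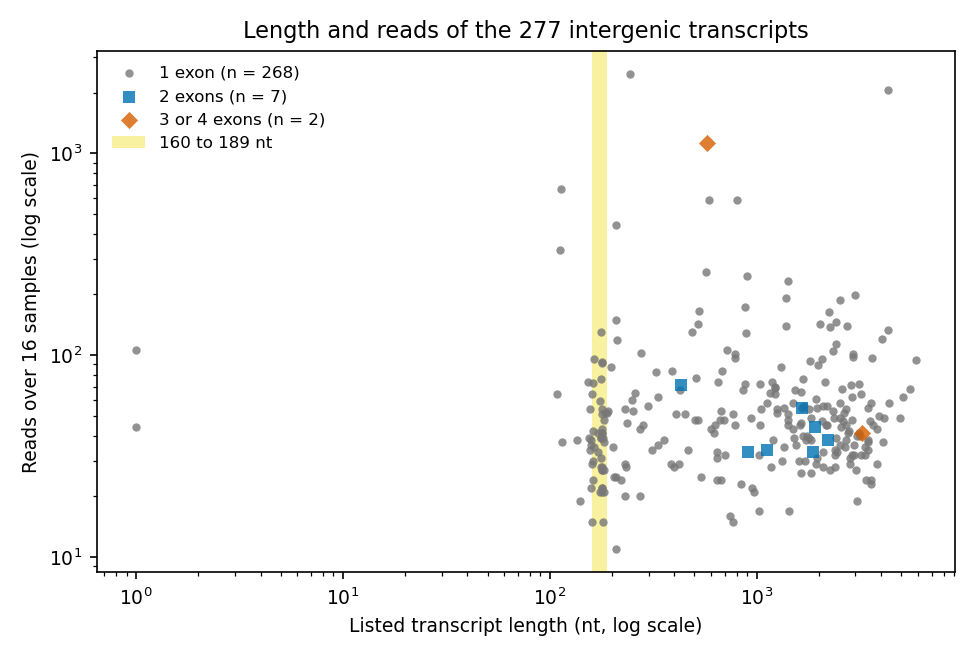
Listed length in nt (x axis, log scale) against reads summed over 16 samples (y axis, log scale) for the 277 intergenic transcripts, 1 point each, with the number of exons in the colour and shape. The shaded band marks 160 to 189 nt, where 40 transcripts stack up, and the 268 single-exon transcripts span the whole range of lengths from 1 to 5870 nt.

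Intergenic transcripts were shorter than the antisense and the known isoforms of the same samples. Per sample, and weighted by reads, mean length was 1488 ± 345 nt (SD, n = 16) for intergenic transcripts and 1997 ± 212 nt for antisense isoforms, with 16 of 16 samples lower (difference -509 nt; two-sided sign-flip permutation test, p = 3.1e-05, the smallest 16 samples allow, adjusted over 6 comparisons 3.7e-05). Known isoforms averaged 2040 ± 156 nt, and 15 of 16 samples were lower for intergenic transcripts (difference -551 nt; permutation p = 6.1e-05, adjusted 6.1e-05). Splicing set them apart from known isoforms and, to a small extent, from antisense ones. Mean exon number was 1.11 ± 0.0370 for intergenic, 1.01 ± 0.00210 for antisense and 6.78 ± 0.670 for known isoforms, higher than antisense and lower than known in 16 of 16 samples (permutation p = 3.1e-05 each). Single-exon reads made up 94.1% ± 1.94 of intergenic, 99.6% ± 0.186 of antisense and 8.45% ± 3.08 of known reads (permutation p = 3.1e-05 each, adjusted 3.7e-05). Being weighted by reads, the exon differences from antisense rest largely on 1 transcript, TALONT000506008, with 3 exons and 1120 reads. The transcripts with 2 exons had 33 to 71 reads each and the 1 with 4 exons had 41. The comparison without TALONT000506008 was not run. The tests above take the 16 samples as independent. Cortical and striatal samples may share a mouse, in which case the p-values are too small.

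Reads were unevenly spread over the 277. Reads per transcript ran from 11 to 2461 with a median of 45 and quartiles of 33 and 67. The most-read transcript held 10.5% of all reads of the 277, the first 6 held 31.9% and the first 50 held 58.7%. Detection across samples was broad: 246 transcripts had a read in at least 8 samples and 41 in all 16, with a median of 13 samples, and only 5 had reads in 4 samples or fewer. In the 4 samples with 2 sets of counts, 85.2% to 90.8% of the transcripts seen in the first set were seen in the second, and 93.3% to 100% of those with at least 5 reads in the first. In the other direction, 64.4% to 79.7% of those seen in the second set were seen in the first. The rule that chose the transcripts used the sum of both sets.

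A short and a long transcript led the list. TALONT000190687, 243 nt with 1 exon, had 2461 reads. Its level was 535, 252, 308 and 234 CPM in NT cortex (samples 1 to 4), 301, 293, 241 and 222 CPM in R6/2 cortex, 113, 154, 264 and 334 CPM in NT striatum and 232, 128, 140 and 226 CPM in R6/2 striatum. The genotypes overlapped in both regions, and within the striatum the 4 samples with 2 sets were the 4 lowest. The R6/2 difference was -0.34 ± 0.26 (log2, SE) in the cortex (edgeR adjusted p = 0.65) and -0.26 ± 0.22 in the striatum (edgeR adjusted p = 0.68). TALONT000804033, 4293 nt with 1 exon, had 2052 reads. Its cortical level was 88.5, 290, 597 and 180 CPM in NT and 346, 318, 202 and 259 CPM in R6/2, and its striatal level 37, 180, 214 and 132 CPM in NT and 155, 108, 75.1 and 182 CPM in R6/2. The cortex was higher, although single samples overlapped (striatum minus cortex -0.86 ± 0.24, log2; edgeR adjusted p = 0.0077).

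The third most-read transcript was spliced. TALONT000506008, with 3 exons in 578 nt, had 1120 reads, and other isoforms of its TALON gene had 315. Its cortical level was narrow, from 51.4 to 90.8 CPM with a median of 75.1 over 8 samples. In the striatum it was 159, 366, 225 and 264 CPM in the samples with 1 set (NT 3, NT 4, R6/2 1 and R6/2 4) and 44.7, 56.8, 61.2 and 48.5 CPM in those with 2 sets. The striatal samples with 1 set thus lay above all cortical samples, while those with 2 sets lay at or below most of them. The fitted regional difference of 0.86 ± 0.18 (log2; edgeR adjusted p = 0.00030) averages over both kinds.

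The other 3 of the 6 most-read transcripts were single-exon. TALONT000304437 (588 nt, 588 reads) and TALONT000123551 (804 nt, 585 reads) followed the same order, at 99.6 ± 29.2 and 130 ± 52.2 CPM in the 4 striatal samples with 1 set against 35.8 ± 8.67 and 23.9 ± 8.65 CPM in the 4 with 2 sets. In the cortex they were at 45.7 ± 14 and 45.2 ± 24.8 CPM (SD, n = 8). TALONT000765029 (113 nt, 666 reads) was the most variable of the 6 between cortical samples, from 4.11 to 112 CPM with a median of 60.5. Its high and low samples were found in both genotypes. Its striatal level was 18.5, 24.7, 218 and 59.9 CPM in NT and 25.7, 69.9, 58 and 45.5 CPM in R6/2. NT was higher among samples with 1 set (139 against 35.6 CPM, mean of 2 each) and lower among those with 2 sets (21.6 against 63.9 CPM), and it was called lower in R6/2 in the fit on samples with 1 set. None of the 6 passed the genotype test over all samples of a region.

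The spliced transcript with most exons, TALONT000413966, had 4 exons in 3210 nt and 41 reads. It had 2, 1, 2 and 0 reads in NT striatum and 8, 7, 7 and 2 in R6/2 striatum, and 8 and 4 reads in all in NT and R6/2 cortex. In CPM all R6/2 striatal samples (3.80 to 10.3) lay above all NT striatal samples (0 to 2.46), and the difference of 2.10 ± 0.69 (log2) did not pass (edgeR adjusted p = 0.12). The longest transcript, TALONT000464976 with 5870 nt in 1 exon, was detected in all 16 samples. Its level was 3.19 to 11.9 CPM in the cortex with a median of 5.97 and 5.83 to 19 CPM in the striatum with a median of 10.5, a regional difference of 1.01 ± 0.35 (log2; edgeR adjusted p = 0.030).

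The share of reads on all intergenic rows was compared between genotypes and regions, since this sum does not depend on the rule that chose the 277. It was 1.01%, 0.769%, 1.17% and 0.939% in NT cortex and 1.66%, 1.04%, 0.984% and 0.915% in R6/2 cortex. In the striatum it was 0.569%, 0.543%, 1.11% and 1.57% in NT and 0.814%, 0.541%, 0.475% and 1.12% in R6/2. The 4 striatal samples with 2 sets were the 4 lowest of all 16.

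No genotype difference in this share passed. The cortical means were 0.973% ± 0.167 in NT and 1.15% ± 0.345 in R6/2 (SD, n = 4 each; two-sided exact permutation test, p = 0.49, adjusted over 5 comparisons 0.61). The striatal means were 0.948% ± 0.491 and 0.737% ± 0.293 (exact permutation p = 0.46, adjusted 0.61), with an R6/2 difference of -0.374 points among samples with 1 set and -0.0476 points among those with 2, and p = 0.17 when genotypes were permuted within numbers of sets, where 0.056 is the smallest possible. Striatum and cortex averaged 0.842% ± 0.391 and 1.06% ± 0.268 (exact permutation p = 0.21, adjusted 0.54; n = 8 each). Without striatal NT 4 the regional difference was -0.323 points (exact permutation p = 0.033, not adjusted). The largest contrast, chosen after the values were seen, lay within the striatum: 1.15% ± 0.314 in samples with 1 set against 0.532% ± 0.0399 in those with 2 (exact permutation p = 0.029, the smallest 4 against 4 allows).

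**Figure D2:**
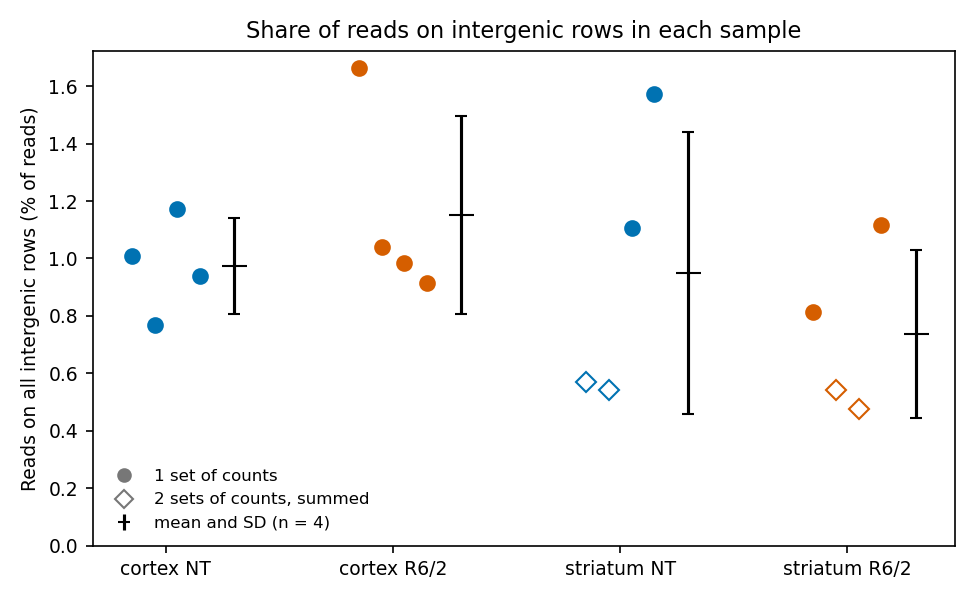
Percentage of reads on all intergenic rows (y axis) in each sample of the 4 groups, with filled circles for samples with 1 set of counts, open diamonds for samples with 2 sets and black bars for the mean and SD. The 4 open diamonds lie between 0.475% and 0.569%, below every other sample, and the genotypes overlap in both regions.

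The gap between the 2 kinds of striatal sample was widest among short RNAs. Over all intergenic rows, those under 200 nt took 0.323% ± 0.161 of reads in striatal samples with 1 set and 0.0609% ± 0.0142 in those with 2 sets, while those of 2000 nt or more took 0.181% ± 0.0361 and 0.174% ± 0.0150. In between, the means were 0.236% and 0.0598% at 200 to 499 nt, 0.214% and 0.0828% at 500 to 999 nt, and 0.199% and 0.155% at 1000 to 1999 nt. The 277 took 0.361% ± 0.0906 and 0.143% ± 0.0128 of reads and showed the same order. Those under 200 nt summed to 819 ± 301 CPM in striatal samples with 1 set, 164 ± 42.9 CPM in those with 2 sets and 227 ± 48.1 CPM in the cortex (SD, n = 4, 4 and 8). The ranges did not overlap between the 2 kinds of striatal sample. At 200 to 499 nt the sums were 894 ± 406, 217 ± 14.8 and 439 ± 102 CPM, and at 500 to 999 nt 904 ± 207, 280 ± 27.2 and 369 ± 45.8 CPM. The gap was smaller in the long ones of the 277, with 366 ± 14.2, 236 ± 26.9 and 305 ± 45.5 CPM at 1000 to 1999 nt and 629 ± 124, 530 ± 89 and 757 ± 261 CPM at 2000 nt or more. The 40 transcripts of 160 to 189 nt alone went from 67.5 ± 15.3 CPM with 2 sets to 496 ± 219 CPM with 1 set, with the cortex at 93 ± 18 CPM. Mean length of all reads moved the same way, as given above, and its part in these sums was not tested.

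**Figure D3:**
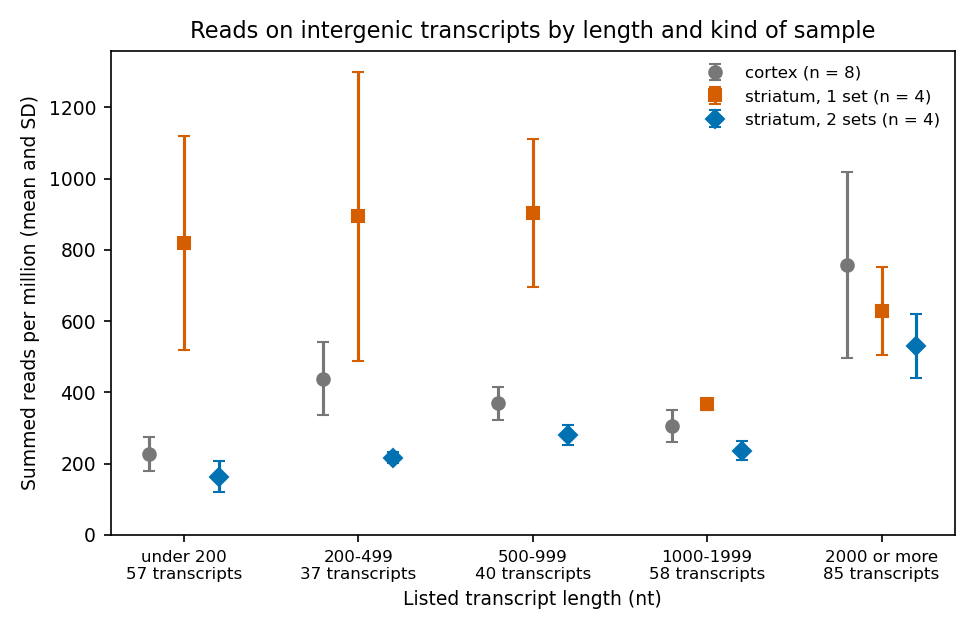
CPM (y axis) summed over the intergenic transcripts of 5 length classes in nt (x axis, with the number of transcripts), as mean and SD over 8 cortical samples, 4 striatal samples with 1 set of counts and 4 with 2 sets. Below 1000 nt the mean of the striatal samples with 1 set lies above that of the cortex and the mean of those with 2 sets below it, and at 2000 nt or more the 3 kinds overlap.

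Region was compared for each transcript over all 16 samples, in a fit over the 27004 isoforms of all classes that passed the rule. Of the 277, 56 were higher in the striatum and 26 higher in the cortex (edgeR adjusted p under 0.05). Among all isoforms tested 13.1% were higher in the striatum, 10.6% were higher in the cortex and 23.7% differed either way. Since a transcript could enter the list through the region where it was high, these counts describe the list and do not test it. The fit gave no usable SE for some transcripts at 0 in 1 or more of the 4 groups, most of all in the cortex, which were therefore not called. Among them were TALONT000232892 (97 striatal reads, SE 3826000) and TALONT000780223 (27 striatal reads, SE 2399630), both without a cortical read. TALONT000690645, with 6 cortical reads and 0 in NT, was another (SE 8932). The median regional difference was 0.58 over the 277 and 0.12 over all isoforms (log2), and stayed at 0.58 with the 15 transcripts without a cortical read set to their lower bound. Transcripts higher in the striatum had a median length of 240 nt and 34 of 56 were under 500 nt, while those higher in the cortex had a median of 1566.5 nt and 7 of 26 were under 500 nt. Of the 40 transcripts of 160 to 189 nt, 19 were higher in the striatum and 1 in the cortex. Of the 9 spliced transcripts, 2 were higher in the striatum and 0 in the cortex.

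These regional counts depended on which striatal samples were set against the cortex. With the 4 samples with 1 set, 93 transcripts were higher in the striatum and 20 lower, where 13.6% and 12% of all isoforms were. With the 4 samples with 2 sets, 17 were higher and 30 lower, where 14.7% and 11.7% of all isoforms were (edgeR, same isoforms, both chosen after seeing the data). The cortical samples, all with 1 set, were the same in both comparisons.

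**Figure D4:**
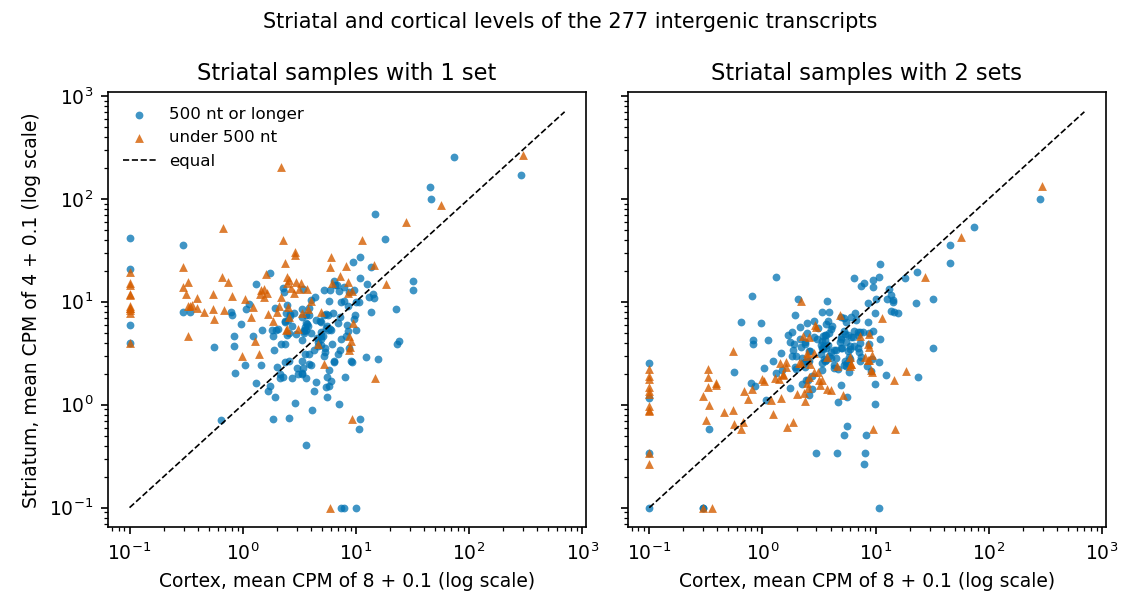
Mean CPM plus 0.1 in the cortex (x axis, 8 samples, log scale) against the striatum (y axis, 4 samples, log scale) for the 277 intergenic transcripts, with striatal samples with 1 set of counts on the left and with 2 sets on the right. Triangles mark the 94 transcripts under 500 nt, which mostly lie above the dashed line of equal levels on the left and mostly near or below it on the right.

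The transcript with the largest striatal excess among those read in both regions was TALONT000136503, 208 nt with 1 exon. It had 8 reads over the 8 cortical samples, at 0 to 5.16 CPM with a median of 1.87. Its striatal counts were 12, 7, 152 and 161 in NT and 43, 12, 11 and 34 in R6/2, from 4.68 to 508 CPM. The regional difference was 4.55 ± 0.48 (log2; edgeR adjusted p = 6.3e-10), 6.32 with striatal samples with 1 set alone and 2.52 with those with 2 sets alone. All but 1 striatal sample lay above the highest cortical one.

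TALONT000204207, 2840 nt with 1 exon, showed a striatal excess that did not follow the number of sets. It had 2 reads in the cortex, 1 each in NT 3 and NT 4, and 6, 22, 7 and 4 reads in NT and 2, 12, 13 and 3 reads in R6/2 striatum. The difference was 4.36 ± 0.69 (log2; edgeR adjusted p = 6.0e-06), with 3.68 in samples with 1 set and 4.75 in those with 2. From pooled counts the striatal level was 21.2 times the cortical one, with a 95% counting interval of 5.65 to 178. Every striatal sample had a read, and 6 of 8 cortical samples had 0.

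On the cortical side, TALONT000415119 (663 nt) and TALONT000453986 (2936 nt), both with 1 exon, were close to absent from the striatum. TALONT000415119 had 3, 10, 1 and 8 reads in NT cortex, 6, 7, 7 and 5 in R6/2 cortex, and 1 read in all 8 striatal samples together, in R6/2 4. Its difference was -5.10 ± 0.67 (log2; edgeR adjusted p = 2.0e-07), -4.49 and -5.96 with samples with 1 and with 2 sets, and its cortical samples all lay above all striatal ones. TALONT000453986 had 5, 1, 0 and 7 reads in NT cortex and 5, 5, 6 and 6 in R6/2 cortex, and 1 striatal read, in NT 2 (-4.92 ± 0.81, log2; edgeR adjusted p = 1.2e-05). With 1 striatal read the pooled cortical excess was 76.5-fold (95% counting interval 13.1 to 3085) and 57-fold (9.58 to 2314).

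Transcripts read in the striatum alone were more common than the reverse. With at least 5 reads in 2 striatal samples and 0 reads in the whole cortex, 15 of the 277 were specific to the striatum. The same held for 0.955% of all isoforms that passed the rule. Of the 277, 0 were specific to the cortex, against 0.0667% of all isoforms. The striatum held 6930750 reads in all and the cortex 4257600, and against the level that 3 counts over the cortex would make up (0.705 CPM) the 15 were at least 2.25-fold to at least 19.9-fold higher in the striatum. The 15 were chosen for reads in the striatum and 0 in the cortex, so the bounds and the p-values below describe them and do not test a striatal excess. The bounds cover counting error only, and the regional fit did not call all 15. TALONT000710942, TALONT000383342, TALONT000616046 and TALONT000561428 did not pass (edgeR adjusted p = 0.079, 0.061, 0.25 and 0.16). TALONT000232892, which has the highest bound, and TALONT000780223 had no usable SE in that fit. All 15 had 1 exon, and 11 were under 500 nt. Without striatal NT 3 there were 8 such transcripts and without NT 4 there were 9.

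Of the 15, all but TALONT000710942 (11 reads with 1 set and 13 with 2) had more reads in the striatal samples with 1 set. For TALONT000325169 these were 30 and 3 reads, and for TALONT000780223 they were 23 and 4. The first 2 of the 15 were read almost only in samples with 1 set. TALONT000232892 (788 nt) had 49, 17, 12 and 19 reads in the striatal samples with 1 set (NT 3, NT 4, R6/2 1 and R6/2 4) and 0 in the 4 samples with 2 sets and in all of the cortex. The samples with 2 sets held 4496362 reads and those with 1 set 2434388. TALONT000410878 (2191 nt) had 23, 4, 19 and 9 reads in the samples with 1 set and 1 read, in R6/2 2, in those with 2 sets. Over all 277, 5 transcripts had at least 10 reads in striatal samples with 1 set and none in those with 2, and 2 had the reverse.

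Genotype was then compared for each transcript within a region. In the cortex 97 of the 277 had at least 5 reads in 2 of the 8 samples and were tested, and 0 passed (edgeR adjusted p under 0.05), where 0.821% of all 16435 isoforms tested did (0.11% higher and 0.712% lower in R6/2). At an unadjusted p under 0.05 there were 10, where 11.8% of all isoforms tested passed. DESeq2 also called 0 of the 97, and 0.888% of all isoforms. The median R6/2 difference was -0.17 over the 97 and 0.03 over all isoforms (log2), with 53 below 0 and 44 above. All 4 R6/2 samples lay below all 4 NT samples for 2 transcripts and above them for 2, where 3.82% and 3.78% of all isoforms did.

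The cortical transcript of smallest p among those higher in R6/2 was TALONT000564106 (878 nt, 1 exon). It had 4, 1, 1 and 1 reads in NT and 11, 10, 6 and 7 reads in R6/2 cortex. In CPM the ranges overlapped, since NT 1 at 9.31 lay above R6/2 3 at 7.42. The difference of 1.77 ± 0.59 (log2) did not pass (edgeR adjusted p = 0.21). In the striatum the same transcript was at 13.1, 17.4, 29.6 and 25.2 CPM in NT and 18, 13.6, 20.9 and 24.7 CPM in R6/2, fully overlapping. Among those lower, TALONT000816972 (1651 nt, 1 exon) had 8, 5, 0 and 7 reads in NT and 2, 2, 3 and 0 in R6/2 cortex (-1.88 ± 0.72, log2; edgeR adjusted p = 0.29).

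In the striatum 231 of the 277 were tested, and 10 fell in R6/2 while 0 rose (edgeR adjusted p under 0.05, number of sets as a term). Of all 23923 isoforms tested 1.55% fell, 0.334% rose and 1.89% did either. The median difference was -0.24 over the 231 and 0.01 over all isoforms (log2), and did not move with transcripts at 0 in a genotype set to their bound, with 143 below 0 and 88 above. It was also below 0 in antisense (-0.27), genomic (-0.17) and incomplete splice match isoforms (-0.11). In known isoforms it was 0.13, in unannotated combinations of known sites 0.09 and in isoforms with unannotated splice sites 0.01. Between 22 and 432 striatal reads lay behind each of the 10, and all had 1 exon. Of the 10, 7 were under 500 nt, 4 of these were 160 to 189 nt long, and 6 had no read in the cortex, all of them among the 15 specific to the striatum. All 4 R6/2 samples lay below all 4 NT samples in CPM for 11 of the 231, 5 of the 10 among them, and above them for 5, where 2.27% and 2.16% of all isoforms did. In 9 of the 10 no R6/2 striatal sample reached 5 reads, so that they were tested through the NT samples where they were high, and the count describes the list and does not test it. All 10 were lower in R6/2 among samples with 1 set and 9 of 10 among samples with 2 sets.

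These 10 calls rested on the term for the number of sets. Without it 0 of the 231 passed, as did 0.0125% of all isoforms, and DESeq2 called 2, where it called 1.3% of all isoforms. Within the 4 samples with 1 set 7 fell and 1 rose, 5 of the 8 being among the 10, where 0.477% of all isoforms fell and 0.0794% rose. Within the 4 samples with 2 sets 0 passed, where 0.0334% of all isoforms did (edgeR, 2 against 2, chosen after seeing the data). Each of the 10 lost its call without at least 1 of the 8 samples. TALONT000762998 lost it without NT 4 alone, TALONT000176367 without NT 4 or R6/2 4, TALONT000794253 without NT 4 or R6/2 1, and TALONT000780223 without NT 3 or NT 4. The other 6 stayed called in 1 to 4 of the 8 fits. In all, leaving out 1 sample gave 4 to 8 calls, of which 3 (without NT 4) to 7 (without NT 1) were among the 10.

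The striatal projection neuron markers, genes of the neurons that make up most of the striatum, moved with the same contrast. Their sum over 9 genes was 6601 to 11908 CPM in NT and 1524 to 3058 CPM in R6/2 striatum, with 5 of 9 genes lower in every R6/2 sample and 0 genes at 0. Their part in the intergenic changes was not tested, and in tissue RNA fewer cells of a type cannot be told apart from less RNA per cell. No gene of the oligodendrocyte, astrocyte, microglia, choroid plexus or endothelial lists, 21 genes in all, separated the genotypes in the striatum. The fall was not confined to the striatum. In the cortex the sum over the 9 projection neuron genes was 304 to 415 CPM in NT and 86 to 116 CPM in R6/2. The cortical sum of the astrocyte genes was 1431 to 2705 CPM in NT and 882 to 1268 CPM in R6/2.

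TALONT000780223 and TALONT000262758 had reads in NT and none in R6/2 striatum. TALONT000780223 (178 nt) had 2, 2, 14 and 9 reads in NT and 0 in all 4 R6/2 striatal samples, with 0 in the cortex (edgeR adjusted p = 0.0024). All NT samples lay above all R6/2 samples, and R6/2 was at least 8.61-fold lower against 3 counts over its 4 samples, or at least 5.38-fold without NT 3, which held 14 of the 27 reads. TALONT000262758 (1504 nt) had 6, 20, 3 and 0 reads in NT and 0 in all 4 R6/2 striatal samples, at least 9.25-fold lower (edgeR adjusted p = 0.0081). NT 4 overlapped with R6/2 at 0. NT 2 held 20 of its 29 reads: without it the bound was at least 4.97-fold and the transcript was not called, nor was it without NT 1, R6/2 2 or R6/2 3.

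TALONT000262758 was read in the cortex of both genotypes, with 3, 8, 3 and 0 reads in NT and 6, 1, 8 and 0 in R6/2. Its cortical difference was -0.42 ± 0.77 (log2; edgeR adjusted p = 0.89). It had the smallest p of the 277 for the interaction of region and genotype (unadjusted p = 0.0015), which did not pass over all isoforms (edgeR adjusted p = 1). In that interaction test 0 of 27004 isoforms passed, and 12 of the 277 had an unadjusted p under 0.05, where 4.32% of all isoforms did. DESeq2 called 0 of the 277 and 3 of all isoforms.

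Among the 4 of 160 to 189 nt, TALONT000176367 (161 nt) had 2, 5, 11 and 10 reads in NT and 2, 0, 0 and 0 in R6/2 (-3.80 ± 0.80, log2; edgeR adjusted p = 0.0083). TALONT000383095 (178 nt) had 1, 3, 10 and 6 reads in NT and 1, 0, 0 and 1 in R6/2 (-3.27 ± 0.85, log2; edgeR adjusted p = 0.041). The fourth, TALONT000263444 (179 nt), had 2, 4, 9 and 9 reads in NT and 1, 1, 0 and 1 in R6/2 (-3.02 ± 0.76, log2; edgeR adjusted p = 0.034). In all 3 the most reads came from NT 3 and NT 4, the NT samples with 1 set.

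The same order held for the somewhat longer TALONT000762998 (335 nt) and TALONT000794253 (274 nt). TALONT000762998 had 3, 6, 10 and 14 reads in NT and 2, 0, 0 and 1 in R6/2 (-3.60 ± 0.73, log2; edgeR adjusted p = 0.0058). TALONT000794253 had 3, 5, 13 and 18 reads in NT and 0, 1, 1 and 2 in R6/2 (-3.36 ± 0.72, log2; edgeR adjusted p = 0.0098). Neither had a read in the cortex.

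The long transcripts among the 10 were spread otherwise over the NT samples. TALONT000710942 (3549 nt) had 2, 10, 10 and 1 reads in NT and 0, 0, 1 and 0 in R6/2 (-3.96 ± 0.98, log2; edgeR adjusted p = 0.031). TALONT000816972, the cortical transcript named above, had 13, 8, 4 and 1 reads in NT and 0, 1, 0 and 1 in R6/2 striatum (-3.40 ± 0.85, log2; edgeR adjusted p = 0.033). Pooled, NT was 12.4 times R6/2 (95% counting interval 3.11 to 108) for TALONT000816972. For both, all NT samples lay above all R6/2 samples in CPM, and for TALONT000816972 the cortical difference pointed the same way without passing.

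TALONT000136503, the striatal transcript described above, was the most-read of the 10 and differed by kind of sample. Among samples with 1 set NT had 187 and 508 CPM and R6/2 55.2 and 64.5 CPM, and among those with 2 sets NT had 13.1 and 4.68 CPM and R6/2 11.7 and 10.5 CPM. The pooled fit gave -1.60 ± 0.43 (log2; edgeR adjusted p = 0.049), samples with 1 set alone -2.54 (edgeR adjusted p = 5.6e-06) and samples with 2 sets alone 0.31 (edgeR adjusted p = 0.90), so the fall passed among samples with 1 set and not among those with 2. The difference between the 2 kinds was not tested.

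**Figure D5:**
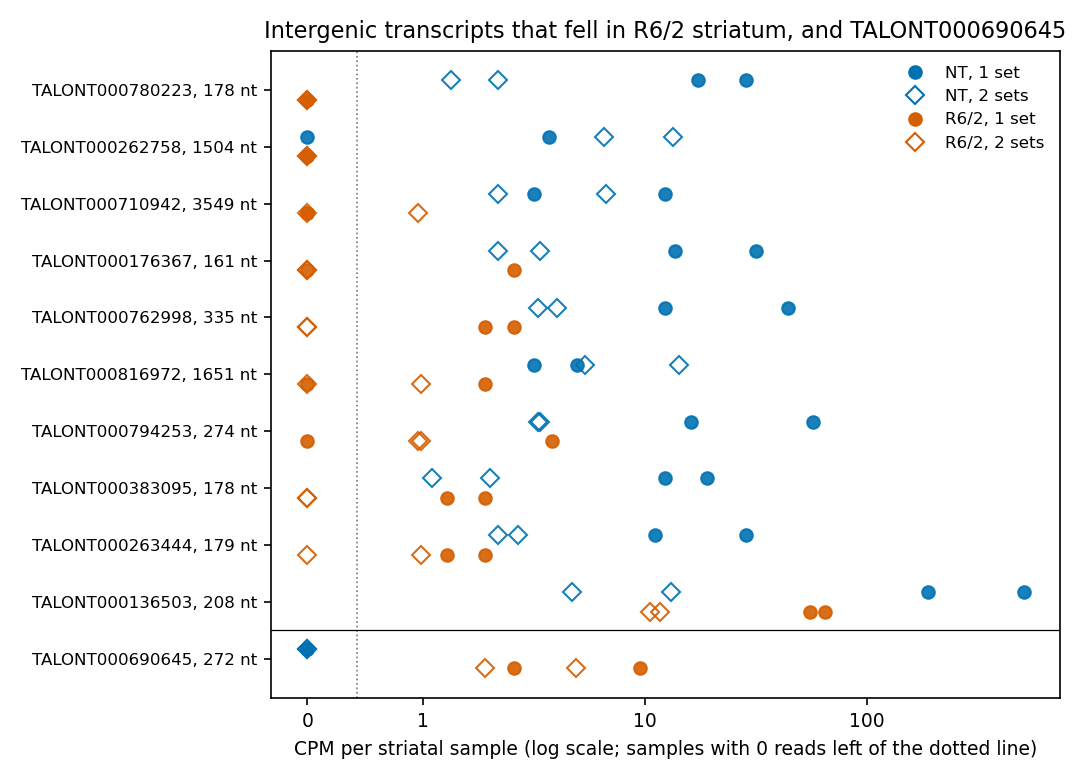
CPM of the 10 transcripts that fell in R6/2 striatum, and of TALONT000690645 below the line, in each striatal sample (x axis, log scale, samples with 0 reads left of the dotted line, where points lie on top of each other). Blue marks NT, orange R6/2, filled circles samples with 1 set of counts and open diamonds samples with 2 sets. All NT points lie to the right of all R6/2 points in 5 of the 10 rows and overlap with them in the others, and the last row shows the reverse order without overlap.

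TALONT000690645 had the opposite pattern, in both regions. This single-exon transcript of 272 nt, read at low level, had 2, 1, 1 and 2 reads in R6/2 cortex and 2, 5, 2 and 5 reads in R6/2 striatum. It had 0 reads in all 8 NT samples, so that its genotypes did not overlap in either region. Over both regions R6/2 had 20 of 5857955 reads and NT 0 of 5330395, which puts R6/2 at least 6.07-fold higher against the 0.563 CPM that 3 counts over the NT samples make up. The striatal difference did not pass (edgeR adjusted p = 0.074), passed when all 16 samples were fitted together (edgeR adjusted p = 0.044), and was not tested in the cortex, where no sample reached 5 reads. The transcript entered the list and the test through R6/2 2 and R6/2 4 in the striatum, the genotype where it was high. The p-values and the bound therefore describe it and do not test it.

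It was singled out after its values were seen. Of the 27004 isoforms of all classes that passed the rule, 1 (0.0037%), TALONT000690645, had reads in all 8 R6/2 samples and in no NT sample, and 0 had the reverse. Without the rule the first pattern was shown by 2 of the 815498 isoforms listed and the second by 0. Its position is not given in the tables used here, so it could not be placed relative to the transgene.

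A few transcripts were missing from both samples of a label. With at least 5 reads expected in each region from the regional pooled CPM, 47 transcripts could show 0 reads in both samples that share a genotype and number, and 3 did; among all isoforms 0.423% did. TALONT000239859 (208 nt, 149 reads) had 0 reads in R6/2 1 and R6/2 3 in both regions, where 6.49 and 8.36 reads were expected in the cortex and 11.8 and 15.9 in the striatum. It had 2 to 12 reads in each of the other 6 cortical samples and 9 to 27 in each of the other 6 striatal ones. TALONT000685770 (177 nt, 131 reads) had 0 in both samples of NT 1, and also in striatal NT 4. TALONT000462264 (2919 nt, 98 reads) had 0 in both samples of R6/2 1, and also in both samples of NT 3 and of R6/2 4. Its cortical reads, all from samples with 1 set, were 2, 11, 0 and 5 in NT and 0, 4, 14 and 0 in R6/2. Its striatal reads, 16, 15, 10 and 21, all came from the 4 samples with 2 sets. Presence followed the label in other transcripts too, of which 2 are given here after their values were seen. TALONT000272666 (163 nt, 35 reads) had reads in NT 1 (4 in the cortex and 5 in the striatum), NT 3 (2 and 13) and R6/2 4 (1 and 10), and 0 in both samples of every other label. TALONT000368807 (1232 nt, 69 reads) had 18 and 34 reads in R6/2 1, 2 and 14 in NT 2, 1 in cortical R6/2 3 and 0 elsewhere. The labels do not say that cortical and striatal samples of a number are from 1 mouse.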

How the data were processed

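Long-read sequencing (Iso-seq) was done by the authors on RNA from the cortex and striatum of R6/2 and NT mice (4 samples per group, 16 in all). Per the labels and the study's methods, RNA was treated with Terminator exonuclease, polyadenylated full-length reads were mapped to mm10 with minimap2 (2.17-r941), corrected with TranscriptClean and assigned to isoforms with TALON. The deposited values are counts, reads per isoform in 20 tables, before TALON's transcript filter and without normalization, so rows of 1 read remain. Where a striatal sample had 2 sets of counts, they were summed. Groups and numbers come from the labels, age and strain from the paper. The paper describes 4 male mice per condition, and p-values measure the spread between these samples.

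Isoform counts of all classes were tested with edgeR 4.0.16 (R 4.3.3) by TMM normalization, glmQLFit and glmQLFTest, with Benjamini-Hochberg adjustment over all isoforms that reached 5 reads in 2 or more of the fitted samples, at a threshold of 0.05. Standard errors come from the F statistic. Striatal fits had the number of sets as a term. Single values per sample were compared with exact permutation tests (scipy 1.17.1). Structure was tested with sign flips over 16 samples. Counting intervals are exact binomial at 95%, a count of 0 was set against 3 counts over the group, and both cover counting error only. The fit was tested on simulated data with changes placed only in well-read isoforms and no effect of the number of sets. That test does not cover the low counts of most transcripts here or the set term. The alternatives were DESeq2 1.42.0, upper-quartile normalization, other filters, library size from known isoforms, the first set only, no set term, a joint fit of all 16 samples, a block by sample number, other thresholds and denominators, and leaving out each sample. Fits within each number of sets, bounds without each sample and length classes over all intergenic rows were added after seeing the data. Tables were handled with pandas 2.3.3 and numpy 2.4.6 under Python 3.11.15, and plots drawn with matplotlib 3.10.9.

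The transcripts, lists and tests were chosen with earlier results of these data known. Named were the 6 transcripts with most reads, the 2 with most exons and the longest, up to 2 per direction and contrast with the largest change among those that passed (or the 1 of smallest p), for region only among transcripts read in both regions, the 2 with most reads specific to a region, up to 3 missing from both samples of a label and the 1 of smallest interaction p. The other striatal transcripts that passed, TALONT000690645, TALONT000272666 and TALONT000368807 were named after their values were seen. Positions and sequences were not used here.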

Additional observations from a re-analysis of the deposited data

Results flagged for a closer look

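Within the groups of 4, 92 sets of values were searched for a single sample far from the other 3, and 8 were found. A group with reads in 1 sample and 0 in the other 3 is always found, so these numbers cannot be set against chance. In the share of reads on intergenic rows, R6/2 cortex 1 stood at 1.66% against 0.915% to 1.04% in the other 3. Most of the others were single reads in a group otherwise at 0. TALONT000263444 was at 2.33 CPM (1 read) in NT cortex 1, TALONT000453986 at 0.668 CPM (1 read) in NT striatum 2, TALONT000415119 at 1.90 CPM (1 read) in R6/2 striatum 4 and TALONT000710942 at 0.95 CPM (1 read) in R6/2 striatum 3. TALONT000176367 was at 2.57 CPM (2 reads) in R6/2 striatum 1. TALONT000816972 was at 0 in R6/2 cortex 4, with the other 3 at 3.19 to 3.71 CPM. The best supported by reads was TALONT000685770, at 19.7 CPM (16 reads) in NT striatum 3 against 0 to 0.668 CPM in the other NT striatal samples.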

How the results depend on the processing

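Of the main results, the number of striatal genotype calls among the intergenic transcripts, 10, moved most. It was 0 without the term for the number of sets, 0 with filterByExpr, which left 31 transcripts to test, 2 with DESeq2, 4 without a filter, 5 with the first set only and 0 in the samples with 2 sets alone. Without 1 sample it ranged from 4 to 8, with 3 to 7 of the calls among the 10: 4 without NT 4, R6/2 1 or R6/2 3, 5 without R6/2 4, and 6 without NT 2, NT 3 or R6/2 2. TALONT000136503 turned to 0.31 (log2) in the samples with 2 sets alone. The regional calls, 82, were 18 with filterByExpr, 50 with the first set only and 47 with striatal samples with 2 sets only. The number of transcripts was 81 at 10 reads in 2 samples and 689 at 3 reads in 2. Striatum-specific transcripts, 15, were 28 when 1 cortical read was allowed, 7 at 10 reads, and 8 to 19 without 1 sample (8 without striatal NT 3, 9 without NT 4). Cortex-specific ones, 0, were 2 when 1 striatal read was allowed, and 0 to 1 without 1 sample (1 without striatal NT 2 or R6/2 4). The regional share difference had an unadjusted permutation p of 0.033 without striatal NT 4 (-0.323 points) and was -0.323 to -0.133 points over these fits. The cause was not tested in any of these. The other 264 recomputed main values kept their direction and side of the threshold, or stayed within 1.5 times.

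The labels do not say that samples of a number are paired, and the correlation over isoforms did not show it: deviations of cortical and striatal samples of a label correlated at -0.039 to 0.115 (2 of 8 above 0.1), and 3 of 8 cortical samples correlated best with their own number. Single transcripts such as TALONT000272666 did follow the label across regions, so pairing of the regions by animal was not settled. With a replicate block the striatal genotype calls were 12 (1 higher, 11 lower, 7 of them among the 10), the regional calls 69 (65 of them among the 82), and the cortical genotype and interaction calls 0.

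Depth was a limit in the cortex, where 31 to 82 of the 277 transcripts reached 5 reads in a sample, against 77 to 158 in the striatum, and 97 and 231 were tested.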
